A study of Homo sapiens with 14 samples.

Results

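The microRNA clusters that mark pluripotent cells were examined at 3 loci of hg38 for peaks of the BAF chromatin remodelling complex and of SOX2. The members are 10 microRNA genes, MIR302A, MIR302B, MIR302C, MIR302D and MIR367 on chromosome 4 and MIR371A, MIR372, MIR373, MIR512-1 and MIR498 on chromosome 19, of 1879 miRNA genes in GENCODE release 44. The rule that defines them uses gene names and positions and no measured value. Each cluster was taken from its first to its last hairpin with 50 kb on each side, and the 3 clusters hold 53 annotated hairpins. The peaks came from chromatin immunoprecipitation and sequencing (ChIP-seq) of WIBR3, a long-established line of human embryonic stem cells (hESCs). Naïve cells had been converted from primed cells in 5i/L/A medium, primed cells were kept in conventional hESC medium with FGF2, and cells of both states grew on inactivated mouse embryonic fibroblasts. Of 14 samples, 4 were inputs, and the other 10 gave 1 peak list each, for BRG1, BRM, BAF155 and SOX2 in each state and a second SOX2 library per state. The peak lists hold no expression values, so neither the naïve and primed labels nor the transcription of the microRNAs could be checked here.

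A microRNA is cut from a hairpin transcript by DROSHA and DICER1 and then guides an Argonaute protein to messenger RNAs that pair with its seed, the bases near its 5′ end. The MIR302/MIR367 and MIR371A–MIR373 clusters are known as abundant microRNAs of embryonic stem cells, and the long array on chromosome 19, often called C19MC, is specific to primates and is known for its expression in placental trophoblast. BRG1 (SMARCA4) and BRM (SMARCA2) are the alternative ATPases of the BAF complex, BAF155 (SMARCC1) is one of its scaffold subunits, and SOX2 is a transcription factor of the pluripotency network. The comparison asks where these proteins were called around the clusters in the 2 pluripotent states.

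The mature sequences of the members, from RefSeq (GRCh38.p14), are shown because their seeds tie the clusters together. Bases 2 to 8, the seed, are in capitals, written 5′ to 3′, and 1 arm is given per member.
hsa-miR-302a-3p: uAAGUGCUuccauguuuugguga
hsa-miR-302b-3p: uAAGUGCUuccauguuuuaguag
hsa-miR-302c-3p: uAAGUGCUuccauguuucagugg
hsa-miR-302d-3p: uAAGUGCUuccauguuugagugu
hsa-miR-372-3p: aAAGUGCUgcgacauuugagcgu
hsa-miR-373-3p: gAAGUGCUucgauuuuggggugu
hsa-miR-371a-3p: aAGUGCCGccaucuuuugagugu
hsa-miR-512-3p: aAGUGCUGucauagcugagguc
hsa-miR-367-3p: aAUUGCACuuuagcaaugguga
hsa-miR-498-5p: uUUCAAGCcagggggcguuuuuc
The seed AAGUGCU was shared by the 4 miR-302 sequences, by miR-372-3p and miR-373-3p, and by 5 microRNAs of the long chromosome 19 cluster, miR-520a-3p to miR-520e-3p. MiR-371a-3p and miR-512-3p carry the letters AGUGC 1 base earlier, while miR-367-3p and miR-498-5p have unrelated seeds. The 6 letters AAGUGC lay inside the seed for 4 of 5 hairpins of the MIR302/MIR367 cluster, 2 of 4 of MIR371A–MIR373 and 10 of the 43 with a mature sequence in the long cluster, against 24 of the 1736 microRNA genes with a mature sequence in the RefSeq table. All 10 members and 52 of the 53 cluster hairpins were matched to a mature sequence.

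The loci held more naïve than primed BRG1 and BAF155 peaks and more primed than naïve SOX2 peaks, and for BRG1 and SOX2 the interval of the naïve share took in the share of the whole lists. Over the 322.779 kb of the 3 windows, with shared sequence counted once, the naïve lists placed 40 BRG1, 34 BAF155, 12 BRM and 2 SOX2 peaks. The primed lists placed 7 BRG1, 16 BAF155 and 5 SOX2 peaks there, and the 167 primed BRM peaks placed none. Naïve peaks made up 85.1% of the BRG1 peaks of both states (exact 95% interval 71.7 to 93.8), against 78.8% over the whole lists. For BAF155 the naïve share was 68.0% (53.3 to 80.5), against 51.7% over the whole lists. For SOX2 it was 28.6% (3.67 to 71), against 17.3%. In the chromosome 19 windows alone, naïve and primed peaks numbered 35 and 5 for BRG1 and 27 and 10 for BAF155. That chromosome as a whole held 4236 naïve and 484 primed BRG1 peaks, and 4204 naïve and 2062 primed BAF155 peaks. The naïve excess of these windows over the whole lists thus cannot be told apart from that of their chromosome. Each list stands for 1 library, or for 2 SOX2 libraries whose lists hold identical coordinates and were counted as 1, so no state difference could be tested against replicate error, and all intervals cover counting error only.

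Which peaks were kept changed these shares under some rules and not under others. Among peaks whose −log10 q reached 3 the naïve ones were 10 of 12 for BRG1 (83.3%, against 78.3% over the whole lists) and 13 of 21 for BAF155 (61.9%, against 39.5%). Fold is the authors' enrichment of a peak over input, a linear ratio. With peaks of at least 4-fold alone, the naïve peaks were 0 of 1 for BRG1 and 1 of 8 for BAF155, against 46.4% and 22.3% over the whole lists. The lists differ in their fold scale, with a median of 2.93 for naïve and 3.54 for primed BRG1 and of 2.89 and 3.28 for BAF155, so 1 fold limit keeps a larger part of a primed list. With equal numbers of top-ranked peaks per antibody the naïve peaks were 2 of 9 for BRG1 and 32 of 48 for BAF155. Both states then have lists of the same length by construction. For BAF155 this trimmed the naïve list only from 62338 to 58352 peaks, so the setting stayed close to the main one. The BAF lists reach down to a −log10 q between 1.00 and 1.01, and the primed BRG1 list holds 15611 peaks where the naïve one holds 57884. The higher naïve number thus remained at the stricter q for both antibodies and at equal list length for BAF155 alone, and at 4-fold for neither.

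**Figure D1:**
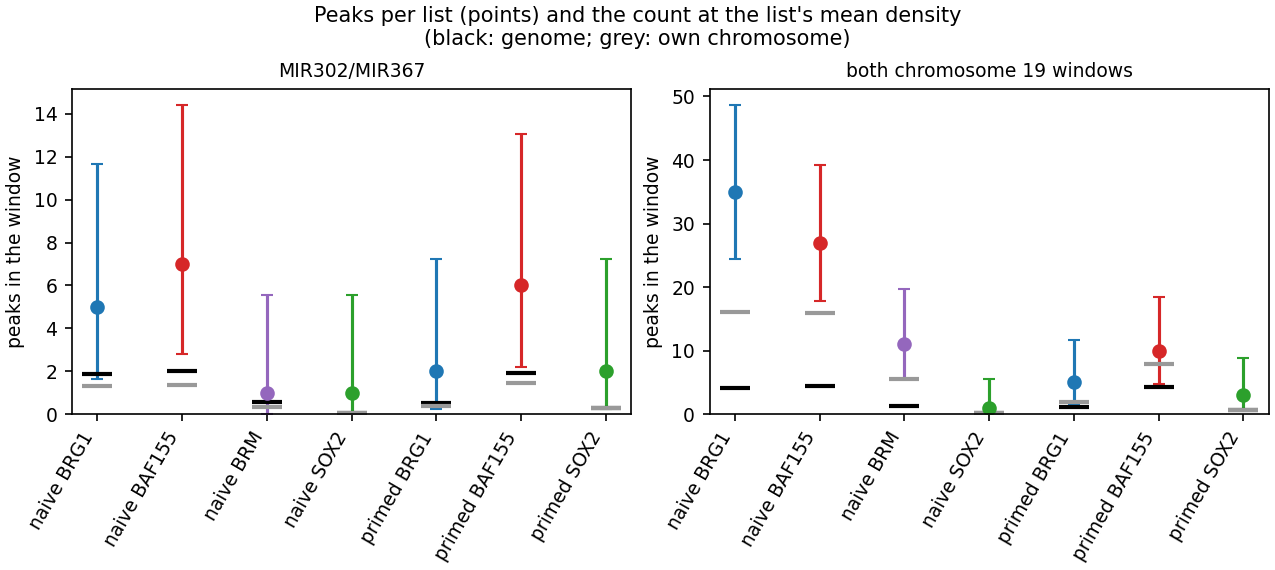
Peaks of each list in the MIR302/MIR367 window (left) and in both chromosome 19 windows together (right). Points are counts with exact 95% Poisson intervals, black dashes the count at the mean density of that list over the genome and grey dashes the count at its density on the same chromosome. On chromosome 19 the 35 naïve BRG1 and 27 naïve BAF155 peaks lie above both dashes, and the 10 primed BAF155 peaks have the grey dash inside their interval.

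Peaks were denser at the loci than over the genome in all 7 lists. The chromosome 19 windows together span 222.095 kb, since the windows of both clusters overlap by 70.644 kb. They held 35 naïve BRG1 peaks (exact Poisson interval 24.4 to 48.7), where the density of that list on chromosome 19 would place 16.0. For naïve BAF155 the numbers were 27 (17.8 to 39.3) and 15.9, and for naïve BRM 11 (5.49 to 19.7) and 5.58. For primed BRG1 they were 5 (1.62 to 11.7) and 1.83, for primed BAF155 10 (4.80 to 18.4) and 7.81, and for primed SOX2 3 (0.619 to 8.77) and 0.591. For naïve SOX2 they were 1 (0.0253 to 5.57) and 0.231. The interval took in the level of the chromosome for naïve BRM, naïve SOX2, primed BRG1 and primed BAF155. The MIR302/MIR367 window of 100.684 kb held 5 naïve BRG1 (1.62 to 11.7) and 7 naïve BAF155 peaks (2.81 to 14.4), where chromosome 4 would place 1.30 and 1.35. It held 2 primed BRG1 (0.242 to 7.22) and 6 primed BAF155 peaks (2.20 to 13.1), where that chromosome would place 0.368 and 1.45. Of these 4 lists, the interval took in the level of the chromosome for primed BRG1 alone.

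The MIR302/MIR367 cluster lies at chr4:112647874-112648557 on the minus strand, in the order MIR302B, MIR302C, MIR302A, MIR302D and MIR367, within the LARP7 gene and over the host transcript MIR302CHG. LARP7 encodes a protein that stabilises 7SK RNA. In both states SOX2, BRG1 and BAF155 were called together at the 5′ end of the cluster. The primed SOX2 peak at chr4:112648612-112649234 ended 54 bp before MIR302B. Its fold was 16.7, the 328th highest of the primed list, so 96.4% of that list had a lower fold. The naïve SOX2 peak at chr4:112648739-112649107 ended 181 bp before MIR302B with a fold of 4.47, and 3.25% of the naïve list had a lower fold. The same place was thus near the top of one SOX2 list and near the bottom of the other.

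The sequence at the midpoint of both SOX2 peaks is shown because the primed summit falls on a SOX motif. It is chr4:112648823-112649022 of hg38, minus strand, with the match to CATTGT in capitals.
MIR302/MIR367 SOX2 site: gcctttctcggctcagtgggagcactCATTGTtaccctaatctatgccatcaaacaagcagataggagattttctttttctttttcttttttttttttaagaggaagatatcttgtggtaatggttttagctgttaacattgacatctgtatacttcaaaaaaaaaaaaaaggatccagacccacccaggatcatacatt
The motif occupied bases 27 to 32 and the summit of the primed peak lay on base 29, a distance of 0 bp. The summit of the naïve peak lay outside the 200 bp, 219 bp from the motif. In the primed peak 0.803% of the 32-base words and 0% of the 75-base words occur more than once in hg38.

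BAF peaks covered this site in both states and reached over the hairpins. Naïve BRG1 was called at chr4:112647868-112649120 with a fold of 2.85 and naïve BAF155 at chr4:112647934-112649136 with a fold of 2.60, over all 5 hairpins. In their own lists 41.9% and 16.8% of the peaks had a lower fold. Primed BAF155 was called at chr4:112647938-112649382 with a fold of 5.05, above 94.6% of its list, and also ran over the hairpins. Primed BRG1 at chr4:112648602-112649239 had a fold of 3.15, above 10.6% of its list, and stopped 44 bp before MIR302B. Naïve BRM was not called at the cluster, and its only peak in the window lay 16.7 kb upstream, at chr4:112665246-112665689 with a fold of 3.03.

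Farther upstream of the hairpins was a second SOX2 site of primed cells. Primed SOX2 was called at chr4:112652225-112652580, 3.67 kb from MIR302B, with a fold of 7.74, above 63.3% of its list. No naïve SOX2 peak overlapped it. Primed BRG1 at chr4:112651936-112652604, with a fold of 4.34, and primed BAF155 at chr4:112650357-112653541, with a fold of 4.67, covered it. They stood above 87.6% and 91.8% of their lists. Naïve BRG1 and BAF155 had small peaks at the same place, both starting at 112652320, of 2.86 and 2.85 fold, 271 and 269 bp wide. Of the 11 BAF regions of the window, the merged BRG1 and BAF155 peaks, 5 were naïve-only, 4 primed-only and 2 common to both states.

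**Figure D2:**
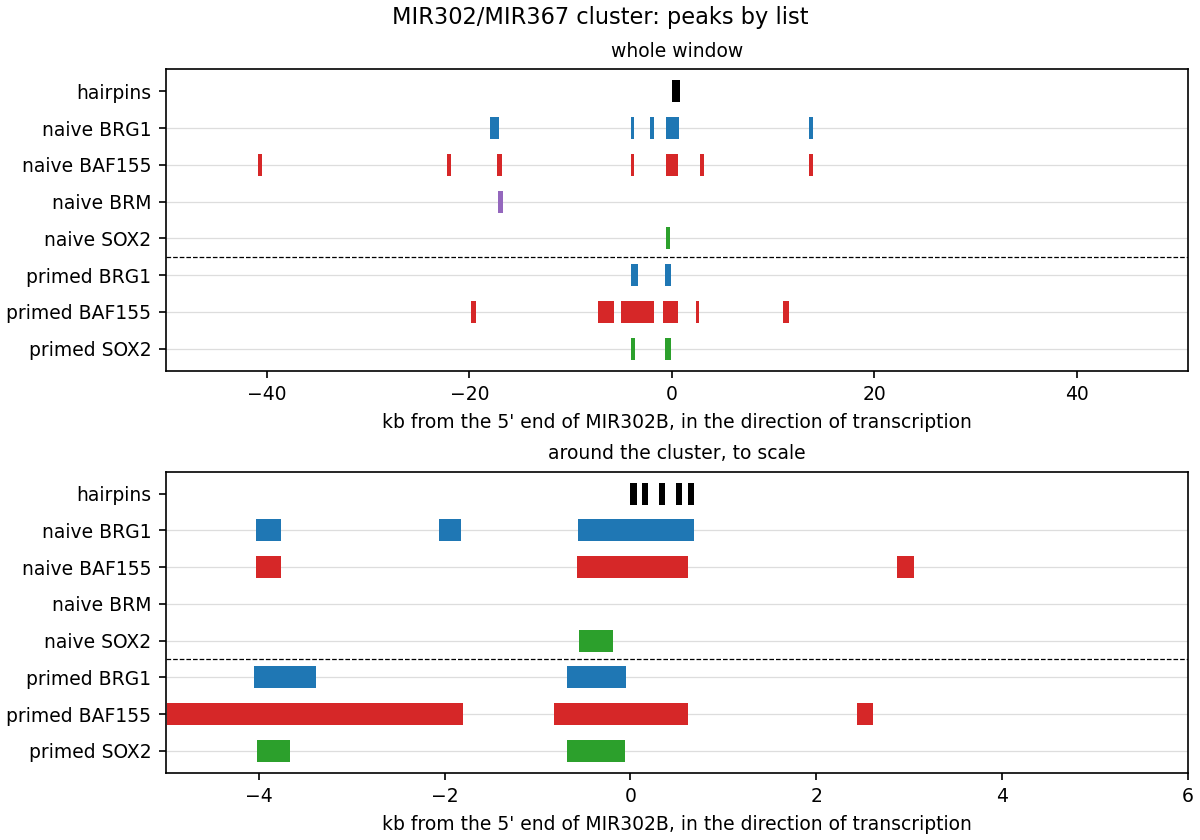
Peaks of the 7 lists around MIR302/MIR367, by distance in kb from the 5′ end of MIR302B in the direction of transcription, for the whole window (top, narrow peaks widened to stay visible) and to scale near the cluster (bottom). Black bars are hairpins and the dashed line separates naïve from primed lists. The SOX2 peaks of both states lie just before the first hairpin, and only primed SOX2 has a second peak, 3.67 kb upstream.

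The MIR371A, MIR372 and MIR373 hairpins lie at chr19:53787675-53788773 on the plus strand under the lncRNAs ENSG00000269564 and ENSG00000269877, with MIR371B opposite MIR371A. The nearest protein-coding gene is NLRP12, an innate immune receptor gene. A single peak touched the hairpins. It was naïve BRG1 at chr19:53788033-53788824, over MIR373 and 76 bp past MIR372, with a fold of 2.35, and only 1.70% of its list had a lower fold. Naïve BRG1 and BAF155 were also called just upstream, 471 and 915 bp before MIR371A, with folds of 2.51 and 2.44. No primed peak came closer to MIR371A than 4496 bp.

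All 7 lists met at 1 site between the chromosome 19 clusters. Naïve SOX2 was called at chr19:53782727-53783074, 4.60 kb upstream of MIR371A, with a fold of 8.20, above 63.5% of its list. Primed SOX2 was called at chr19:53782642-53783037 with a fold of 10.6, above 83.4% of its list. Naïve BRG1, BAF155 and BRM covered it with folds of 3.06, 3.05 and 2.95. Primed BRG1 and BAF155 were called there with folds of 3.95 and 4.42, above 76.3% and 88.9% of their lists. It was the only naïve SOX2 peak of both chromosome 19 windows. Merged over the lists, the site spanned 5022 bp, from 53780501 to 53785522, and it was the only one of 39 merged chromosome 19 sites with a peak of every list.

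Its sequence is shown because, as at MIR302/MIR367, the primed summit sits beside the SOX motif. The window is chr19:53782740-53782939 of hg38, plus strand, with CATTGT in capitals at bases 114 to 119.
MIR371A upstream SOX2 site: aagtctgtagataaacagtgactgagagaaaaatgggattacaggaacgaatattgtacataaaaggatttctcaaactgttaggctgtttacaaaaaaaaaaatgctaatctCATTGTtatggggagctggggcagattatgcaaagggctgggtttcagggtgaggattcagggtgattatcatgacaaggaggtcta
The primed summit was at base 120, 1 bp from the motif, and the naïve summit 53 bp from it. None of the 32-base words of the primed peak occurs more than once in hg38.

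The long cluster runs from MIR512-1 to MIR1283-2 at chr19:53666679-53758318 on the plus strand, with 44 hairpins in 91.64 kb, under the lncRNA ENSG00000269842. Its peaks gathered at the 5′ end, at MIR512-1, the first hairpin. Naïve BAF155 had its strongest peak of all 3 loci there, at chr19:53666320-53666685, reaching into MIR512-1. Its fold was 6.07, the 250th highest of 62338, above 99.6% of the list. Naïve BRM at chr19:53666441-53666669 ended 9 bp before the hairpin with a fold of 4.58, above 93.9% of its list and the highest BRM fold of the loci. Primed BAF155 was called at chr19:53666306-53666644 with a fold of 5.63, above 97.2% of its list, and primed BRG1 at chr19:53666400-53666576 with a fold of 3.56. Naïve BRG1 was broader, at chr19:53663918-53666679, with a fold of 3.46, and it was the highest naïve BRG1 fold of the loci. SOX2 was not called at this site in either state, and its nearest peaks lay 71.1 kb away in naïve cells and 5.08 kb away in primed cells.

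The site at MIR512-1 is partly repeated. Of the 32-base words of the naïve BAF155 peak 56.8% occur more than once in hg38, and of its 75-base words 33.6%. For the naïve BRM peak the shares were 67.2% and 46.7%, and for the primed BAF155 peak 53.4% and 24.2%. MIR512-1 and MIR512-2 share their mature sequences, and peaks of both states were also called at MIR512-2. Naïve BRG1, BAF155 and BRM ran over that hairpin with folds of 3.14, 3.06 and 2.74. A pair of primed peaks stood just before it. Primed BAF155 at chr19:53668716-53669040 had a fold of 5.70, the highest primed BAF155 fold of the loci, and primed BRG1 at chr19:53668764-53668956 had a fold of 3.83. How far reads of 1 copy were placed on the other was not tested.

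Upstream of MIR512-1 lay a SOX2 site of primed cells. Primed SOX2 was called at chr19:53661062-53661600, in an intron of ENSG00000269842 and 5.08 kb before MIR512-1, with a fold of 14.9, the 497th highest and above 94.6% of its list. Primed BAF155 at chr19:53660373-53661552 had a fold of 5.24, above 95.7% of its list, and primed BRG1 at chr19:53660919-53661549 a fold of 3.51. Naïve BRG1, BAF155 and BRM overlapped the place with folds of 2.96, 2.85 and 2.94, and naïve SOX2 was not called. A weaker primed SOX2 peak, of 4.87 fold, lay at chr19:53644146-53644380, 22.3 kb before MIR512-1, beside a primed BAF155 peak of 4.19 fold.

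The stronger of these peaks is shown because its window holds the OCT letters and no exact SOX match. It is chr19:53661231-53661430 of hg38, plus strand. The capitals, bases 137 to 143, read ATTTGCA on the other strand and lie 56 bp from the summit.
MIR512-1 upstream SOX2 site: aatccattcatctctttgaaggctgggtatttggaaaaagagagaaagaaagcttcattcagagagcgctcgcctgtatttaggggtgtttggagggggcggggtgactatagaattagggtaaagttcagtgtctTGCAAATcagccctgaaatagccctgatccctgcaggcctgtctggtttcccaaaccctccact
Over all lists, the SOX letters (CATTGT or, with a T as second base, CTTTGT) on either strand were present in the central 200 bp of 59.0% of naïve and 59.5% of primed SOX2 peaks, and at these loci in 2 of 2 and 3 of 5. ATTTGCA was present in 17.6% and 13.2% of the same lists and in 0 of 2 and 1 of 5 peaks of the loci. A match describes these letters only.

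Beyond the peaks at MIR512-2 the array held peaks of naïve BRG1 alone. The longest stretch of the chromosome 19 windows without a peak of any list was chr19:53682600-53746206, 63.607 kb long and holding 30 hairpins, from MIR515-2 to MIR520H. Inside the cluster span, peak midpoints numbered 5 for naïve BRG1, 1 each for naïve BAF155, naïve BRM, primed BRG1 and primed BAF155, and 0 for SOX2 of either state. The 50 kb before MIR512-1 held 8 naïve BRG1, 13 naïve BAF155 and 5 naïve BRM midpoints. The 29.356 kb between MIR1283-2 and MIR371A held 9, 6 and 4. The 50 kb after MIR373, on the side of NLRP12, held 11, 6 and 1. Per 100 kb, naïve BRG1 midpoints numbered 5.46 in the span, 16 before MIR512-1, 30.7 between the clusters and 22 after MIR373. That list holds 1.87 peaks per 100 kb over the genome and 7.23 over chromosome 19. For naïve BAF155 the same segments gave 1.09, 26, 20.4 and 12, against 2.02 and 7.17. In the bare stretch 25.4% of the 32-base words and 1.96% of the 75-base words occur more than once, against 29.9% and 2.57% in the 50 kb before MIR512-1 and 32.1% and 1.23% between the clusters. The share of the stretch was below those of both neighbours by 32-base words and between theirs by 75-base words. Its single hairpins ranged by 32-base words from 0% (MIR526B) to 100% (MIR515-2). How far reads could be placed in this stretch was not tested.

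MIR498, the fourth hairpin of the array, was overlapped by no peak. Naïve BAF155, BRG1 and BRM came within 3.22, 3.71 and 4.87 kb on its upstream side, and primed BAF155 and BRG1 within 5.16 and 5.24 kb. At the far end, MIR1283-2 had a naïve BRG1 peak of 2.42 fold 432 bp upstream, and its nearest peaks of the other 6 lists lay between 7.67 and 24.4 kb downstream.

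A CpG island of 2074 bp, at chr19:53647468-53649541 with 62.7% GC, lay at the 5′ end of ENSG00000269842, the transcript over the array. It held 2 naïve BRG1 and 2 naïve BAF155 peaks and none of naïve BRM, naïve SOX2 or any primed list. The folds of these naïve peaks ran from 2.22 to 2.78. The 2 BRG1 peaks stood above 33.4% and 1.88% of their list and the 2 BAF155 peaks above 8.48% and 0.399%, so all 4 were in the weaker part of their lists. Each other chromosome 19 island met 1 naïve BRG1 peak and no primed one, among them chr19:53787641-53788570 over MIR371A and MIR372. On chromosome 4 the island at chr4:112636608-112637670 met 1 primed BAF155 peak and no naïve one. The island at chr4:112625169-112625756 met no peak.

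**Figure D3:**
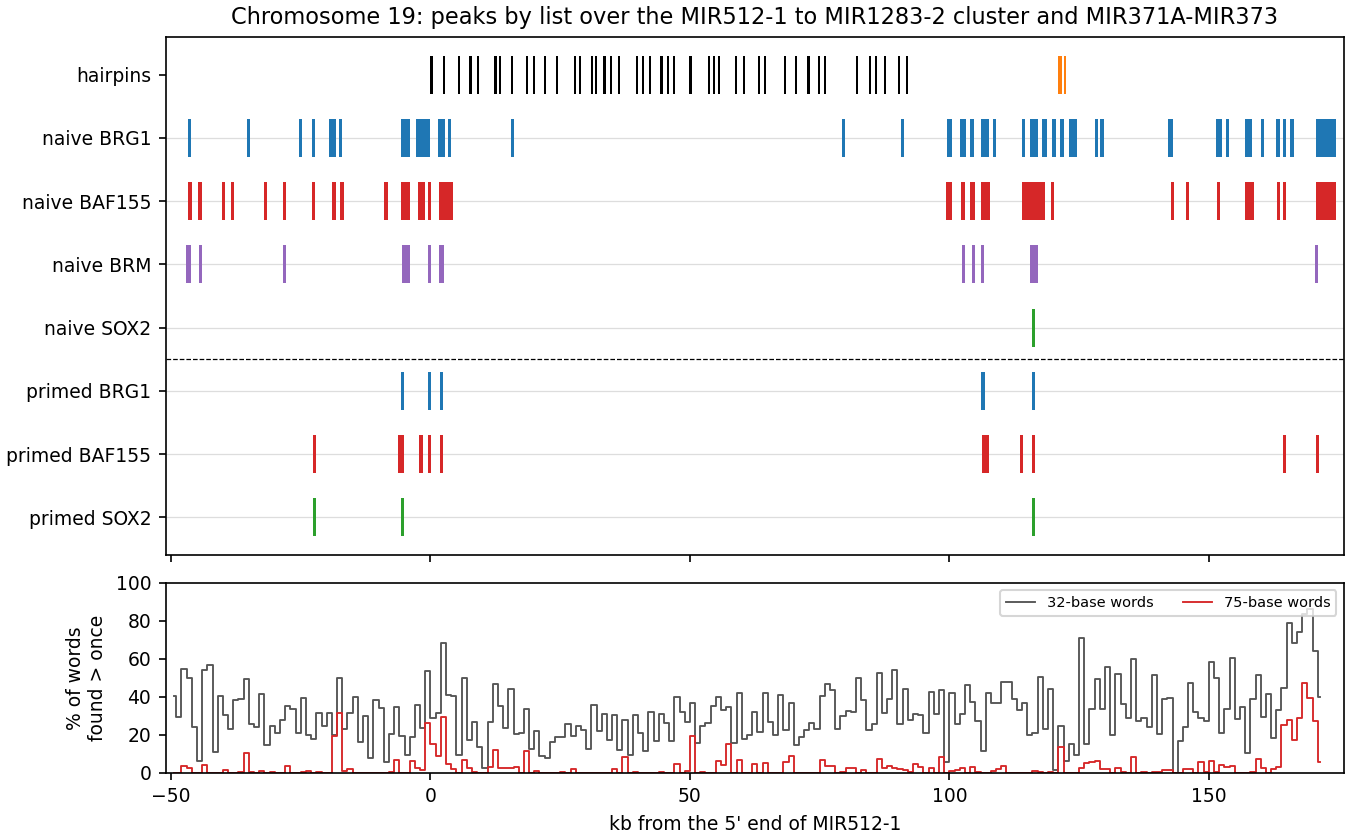
Top, peaks of the 7 lists along chromosome 19 by distance in kb from the 5′ end of MIR512-1, widened where needed to stay visible. Black bars are hairpins from MIR512-1 to MIR1283-2, orange bars MIR371A–MIR373, and the dashed line separates naïve from primed lists. Bottom, percent of 32-base and 75-base words found more than once in hg38, per kb. Most peaks flank the array, and no list has a peak in the 63.607 kb over its middle.

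BAF regions, the merged BRG1 and BAF155 peaks of a state, were sorted by whether they had a partner in the other state, with at least 25% of either region covered. Of 50 BAF regions at the loci 36 were naïve-only (72.0%, exact interval 57.5 to 83.8), 4 primed-only and 10 common. Over the genome the naïve-only class made up 45.4% of the regions, the primed-only class 28.5% and the common class 26.1%. These 106424 regions are more than the BAF peaks counted in the study, so the classes are not those of the study. In the chromosome 19 windows the numbers were 31 naïve-only, 0 primed-only and 8 common of 39, and the exact interval of 0 of 39 reaches 9.03%. Chromosome 19 as a whole also held more naïve than primed peaks, 4236 against 484 for BRG1 and 4204 against 2062 for BAF155. The classes were not counted over that chromosome. All 4 primed-only regions belonged to the MIR302/MIR367 window. Among peaks whose −log10 q reached 3, 7 of the 8 state-specific regions at the loci were naïve-only (87.5%, against 44.2% over the genome). With peaks of at least 4-fold, 0 were naïve-only and 6 primed-only, where the naïve-only part over the genome was 22.2%.

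Partners were counted by the same rule. All 7 primed BRG1 peaks overlapped a naïve BRG1 peak, against 66.2% of the whole list, while 7 of 40 naïve BRG1 peaks had a primed partner, against 17.4%. For BAF155, 12 of 16 primed peaks had a naïve partner, against 42.3%, all 10 on chromosome 19 and 2 of 6 at MIR302/MIR367. In the other direction 11 of 34 naïve BAF155 peaks had a primed partner, against 40.6%. Both naïve SOX2 peaks had a primed partner, against 47.9% of the list, and 2 of 5 primed SOX2 peaks had a naïve one, against 10%. A rule of 50% coverage of each region of a pair left BRG1 partners for 0 of 7 primed and 0 of 40 naïve peaks. For BAF155 it left 4 of 16 and 4 of 34. The shares of the whole lists under that rule were not computed, so these counts have no background. The median width of the BRG1 peaks at the loci was 744.5 bp in naïve and 223 bp in primed cells.

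SOX2 and BRM peaks overlapped BAF regions of their own state, at 25% of either region. A naïve BAF region overlapped each of the 12 naïve BRM peaks, against 94.3% of the list, and both naïve SOX2 peaks, against 93%. All 5 primed SOX2 peaks overlapped a primed BAF region, against 88.4%, and 4 of the 5 (exact interval 28.4 to 99.5) a naïve BAF region, against 41.6%. With 50% of each region covered, the counts within a state were 3 of 12 for BRM, 0 of 2 for naïve SOX2 and 2 of 5 for primed SOX2. The shares of the whole lists were not computed for that rule. Of the naïve BRG1 peaks of the loci 26 of 40 had a naïve BAF155 partner, against 71.7%.

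Of the 16 primed BAF155 peaks of the loci 5 overlapped a primed SOX2 peak (31.2%, exact interval 11 to 58.7), against 13.6% of the whole list. Their folds were 5.24, 5.05, 4.67, 4.42 and 4.19. The highest primed BAF155 folds, 5.70 before MIR512-2 and 5.63 before MIR512-1, belonged to peaks without SOX2, and the other 9 peaks without SOX2 had folds from 2.49 to 3.89.

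**Figure D4:**
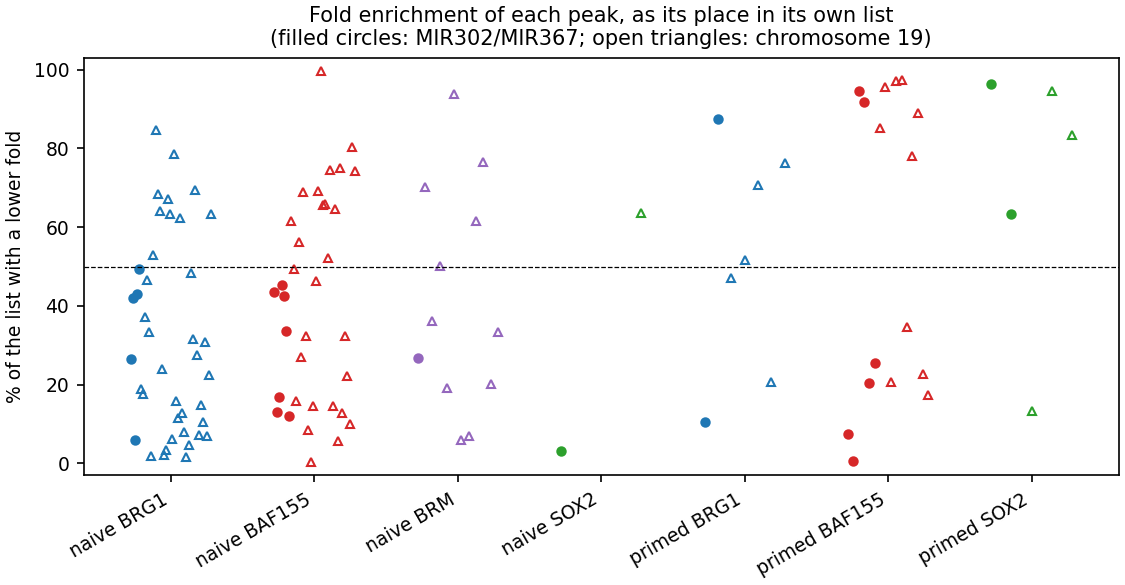
Each peak of the loci by the percent of its own list that has a lower fold, so 100 is the strongest peak of a list and the dashed line at 50 its middle. Filled circles are MIR302/MIR367 peaks and open triangles chromosome 19 peaks. Most naïve BRG1 peaks lie below the line, primed BAF155 peaks fall into a group at 78.1 or above and one at 34.7 or below, and the primed SOX2 peak at MIR302/MIR367 stands at 96.4.

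By hairpin, 25 of 53 had a naïve BRG1 peak within 5 kb, against 37.6% of all 1879 miRNA genes, and 11 had a primed BRG1 peak, against 15.4%. Naïve BAF155 lay within 5 kb of 14 hairpins, against 37.9% of miRNA genes, and primed BAF155 of 11, against 36.9%. Naïve BRM was near 7, against 15.9%. SOX2 was near 8 hairpins in each state, the 5 of MIR302/MIR367 and MIR371A, MIR371B and MIR372, against 1.12% of miRNA genes for naïve SOX2 and 5.75% for primed SOX2. Hairpins of a cluster share their peaks, so the 8 hairpins rest on 2 sites. Of the 44 hairpins of the long array, 5 had a naïve BAF155 peak within 5 kb and 3 a primed one. For BRG1 the numbers were 16 and 3.

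The same window size was laid over 7 other microRNA clusters. The window of MIR106A to MIR363 on chromosome X, a paralogue of the MIR17 to MIR92A1 cluster, held 3 BRG1, 3 BAF155 and 3 SOX2 peaks of primed cells and 1 naïve BRG1 and 1 naïve BAF155 peak. The window of MIR17 to MIR92A1 held 2 naïve BRG1 and 3 naïve BAF155 peaks, 1 primed BRG1 and 2 primed BAF155 peaks, and no SOX2 peak. That of MIR106B to MIR25 held 12 naïve BRG1, 11 naïve BAF155 and 5 naïve BRM peaks beside 1 primed BRG1 and 8 primed BAF155 peaks. Naïve BRG1 and BAF155 also outnumbered the primed peaks at MIR200C to MIR141, with 10 and 12 naïve against 2 and 7 primed, and at MIR200B to MIR429, with 11 and 12 against 1 and 5. The MIR143 to MIR145 window held 4 and 8 naïve against 0 and 3 primed, and the MIRLET7A1 to MIRLET7D window 3 and 1 against 1 and 2. Primed SOX2 had 2 peaks at MIR200C to MIR141 and 1 at MIR143 to MIR145, and no naïve SOX2 peak was called in any of the 7 comparison windows. These differences between loci were not tested.

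The genes that make and use microRNAs were mostly called at their promoters by BAF155 in both states and by BRG1 in naïve cells. Of 20 genes, naïve BRG1 had a peak midpoint within 1 kb of a start site at 19, against 65.2% of 20033 protein-coding genes. The exception was XPO5, which exports the precursor hairpins and had a naïve BRG1 peak within 5 kb. Naïve BAF155 was at all 20, against 65.4%, and primed BAF155 at 19, all but TRIM71, against 71.5%. TRIM71, a target of let-7, had naïve BRG1 and BAF155 peaks and no primed peak within 1 kb, while within 5 kb it had peaks of primed BRG1, BAF155 and SOX2. Primed BRG1 was at 10 of the 20, DICER1 among them, against 33.3%. Naïve BRM was at 7, including DGCR8, the partner of DROSHA, and AGO2, against 21.7%. Primed SOX2 was at 3, DGCR8 and the let-7 inhibitors LIN28A and LIN28B, against 5.23%, and naïve SOX2 at none, against 0.584%.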

How the data were processed

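ChIP-seq peak lists of 10 samples were used. Per the study's methods, the authors trimmed reads with trim_galore, mapped them to hg38 with Bowtie2 (2.3.4 in the submitters' processing notes, with SAMtools 0.1.19), removed duplicates and called peaks with MACS2 against input, narrow for SOX2 and broad for BAF subunits. SOX2 libraries were paired-end and BAF libraries single-end, from different facilities. The deposited lists give positions and, for naïve and primed BRG1, BAF155 and 1 SOX2 list per state and for naïve BRM, the authors' score, fold over input (a ratio), and −log10 p-value and q-value. Scores and p-values were not used. Primed BRM and the second SOX2 lists give positions alone. Whether SOX2 libraries were pooled before calling is not given in the sources used here. Read totals of the BAF libraries, given in the study's supplement, were not used here, and by them the naïve BRG1 and BAF155 libraries were shallower than the primed ones. The SOX2 lists hold fewer peaks than that supplement counts, so a place without SOX2 is one without a peak in these lists. Inputs were not analysed here.

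The members and lists were chosen with earlier results of these data known. Windows came from GENCODE release 44. Overlaps were made with bedtools 2.31.1 at 25% of either region, other steps with Python, pandas and SciPy. Intervals are exact at 95% (Poisson for counts, Clopper-Pearson for shares). No test was run between states. Repeated words (32 or 75 bases on either strand) were counted over hg38. CpG islands were stretches of at least 500 bp with at least 50% GC and an observed-to-expected CpG ratio of at least 0.6. Overlap steps were tested on simulated data. Named were the 10 members, MIR1283-2 and neighbouring genes, the SOX2 peaks of the loci and the peak of highest fold per list. Of the other peaks near a member, over a cluster or of naïve BRM, only part were named. The rest, some of them within 5 kb of a member, enter by count, so a place not named may hold a call. The sequence under 1 peak is not reported here.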

Additional observations from a re-analysis of the deposited data

How the results depend on the processing

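No paired analysis was possible because the 2 SOX2 lists of a state hold identical coordinates and no test was run. Leaving out either could not change a value (a naïve SOX2 share of 28.6%, with 2 naïve and 5 primed peaks) and is not counted here. Of the other recomputed values that answer a comparison, 74 stayed within the interval of the main value or within 1.5 times the main count, and 29 did not and are given here. With peaks of at least 4-fold, the naïve share was 0% for BRG1 and 12.5% for BAF155, naïve BRM fell from 12 peaks to 1, and the naïve-only share of state-specific BAF regions fell from 90.0% to 0%. Partners were then found for 0% of primed BRG1, 100% of naïve BAF155 (1 peak) and 14.3% of primed BAF155 peaks, 0% of naïve SOX2 peaks lay in a naïve BAF region, and 10 hairpins were within 5 kb of a naïve peak instead of 26. No naïve BRG1 peak reached 4-fold, so its partner share has no value there. With a −log10 q of at least 3, naïve BRM had 3 peaks and 14 hairpins were near a naïve peak. With equal numbers of top-ranked peaks, the naïve BRG1 share was 22.2%, the BRG1 partner shares 100% (naïve) and 28.6% (primed), and 14 hairpins were near a naïve peak. A 100 kb flank gave 24 naïve BRM peaks. With 25% of both regions covered, partner shares were 42.9% for primed BRG1, 14.7% for naïve BAF155 and 31.2% for primed BAF155. With 50% of both, they were 0% for BRG1 in either direction, 11.8% and 25% for BAF155, and the shares in BAF regions were 25% for BRM, 0% for naïve SOX2 and 40% for primed SOX2. Partner shares and shares in BAF regions were not computed over the whole lists under these changed settings. BAF regions from BRG1 alone were 100% naïve-only among the state-specific ones. Within 1 kb, 15 hairpins had a naïve and 7 a primed peak instead of 26 and 11. The cause of these changes was not tested. Leaving out peaks with at least 10% repeated 75-base words, chosen after seeing the data, kept the naïve shares at 84.1%, 67.4% and 28.6% for BRG1, BAF155 and SOX2. The pathway promoters, at 20 naïve and 19 primed genes, changed by less than 1.5 times with a 5 kb distance. Where a list holds no peak, the place is without a call in that list, and the size of any enrichment there was not measured here.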
